A study of Mus musculus with 2 samples.

Results

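The peaks described are H3K9me2 peaks of mouse embryonic cortex that lie in the most gene-rich megabases of the autosomes. Chromosomes 1 to 19 were cut into adjoining 1 Mb windows, and a window counted as gene-rich when it held the midpoints of 16 or more RefSeq protein-coding genes. A peak belonged to the set when its midpoint fell in such a window. The rule used gene positions only and no measured value. It took 408 of 2413 autosomal windows (16.9%), which held 10696 of 20560 autosomal coding genes (52.0%), with a median of 22 and at most 67 coding genes a window. These windows contained 73 of the 743 wild-type peaks and 583 of the 6253 transgenic peaks, or 656 of 6996 in all.

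The mark was measured by ChIP-seq in the cortex of C57BL/6 mouse embryos on embryonic day 15.5. There was 1 wild-type library and 1 TBC1D3-transgenic library, from the same strain, stage and tissue and with the same antibody. The promoter that drives the transgene, the number of embryos behind a library and their sex are not given in the sources used here. With 1 library a genotype there is no test between genotypes, and every interval below is an exact 95% interval that covers counting error only. Spread of peak counts between windows is left out, so intervals of densities and of their ratios can be too narrow. Peaks of a library share their source and are not replicates. Peak lists measure no expression, so the labelled tissue could not be checked by its markers.

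H3K9me2 is a repressive histone mark that the methyltransferase G9a (Ehmt2) and its partner GLP (Ehmt1) deposit, and that HP1 proteins and other readers bind. It typically covers broad stretches of gene-poor chromatin at the nuclear lamina and is low at the start sites of active genes. The study's title joins TBC1D3, a hominoid gene, with G9a, neural progenitors and cortical expansion. The question followed here is where the 2 libraries still had peaks in the part of the genome where genes are packed most densely.

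Few of these peaks touched a gene start, and promoters make up little of the sequence. Among 13080 RefSeq promoters of gene-rich windows, each running from 250 bases before to 50 bases after a start, 1 wild-type and 5 transgenic peaks shared bases with one. Those promoters span 3.60 Mb, which gives 0.278 wild-type (0.00704 to 1.55) and 1.39 transgenic peaks per Mb (0.451 to 3.24). Over all bases of gene-rich windows the densities were 0.179 and 1.43 per Mb, counted by peak midpoint. A promoter was counted when it shared any base with a peak, which is the wider criterion. The promoter and window densities are therefore not like measures. In the other autosomal windows 1 of 669 wild-type and 15 of 5509 transgenic peaks did so, among 18316 promoters. These are the only peaks whose bases could be read, because the sequences come from RefSeq promoters of GRCm38.p6 and no genome was used. The 4 promoters that shared 45 bases or more with a peak are shown 5′ to 3′ along the gene, with the bases under a peak in capitals.
Tie1, chr4:118489800-118490099, minus strand: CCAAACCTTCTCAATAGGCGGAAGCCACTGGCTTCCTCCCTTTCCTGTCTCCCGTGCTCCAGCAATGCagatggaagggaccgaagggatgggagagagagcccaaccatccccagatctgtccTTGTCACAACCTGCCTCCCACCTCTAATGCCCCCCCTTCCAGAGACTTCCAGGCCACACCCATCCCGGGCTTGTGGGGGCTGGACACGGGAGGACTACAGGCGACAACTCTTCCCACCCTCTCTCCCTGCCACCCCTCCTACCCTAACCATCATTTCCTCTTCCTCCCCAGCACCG
Olfr1366, chr13:21537978-21538277, minus strand: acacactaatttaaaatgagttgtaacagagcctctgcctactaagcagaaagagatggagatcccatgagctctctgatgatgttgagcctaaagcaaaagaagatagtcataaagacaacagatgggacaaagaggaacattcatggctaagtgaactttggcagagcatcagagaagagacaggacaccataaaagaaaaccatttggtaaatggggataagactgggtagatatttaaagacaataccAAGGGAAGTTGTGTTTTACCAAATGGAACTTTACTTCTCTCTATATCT
Prl3c1, chr13:27198653-27198952, plus strand: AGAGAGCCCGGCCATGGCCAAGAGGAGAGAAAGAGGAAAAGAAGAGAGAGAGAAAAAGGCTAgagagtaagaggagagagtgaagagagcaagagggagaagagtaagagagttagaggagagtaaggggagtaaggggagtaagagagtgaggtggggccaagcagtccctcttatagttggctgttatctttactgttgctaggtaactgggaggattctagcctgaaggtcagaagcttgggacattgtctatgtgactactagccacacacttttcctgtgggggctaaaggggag
Gm20234, chr11:83067651-83067950, minus strand: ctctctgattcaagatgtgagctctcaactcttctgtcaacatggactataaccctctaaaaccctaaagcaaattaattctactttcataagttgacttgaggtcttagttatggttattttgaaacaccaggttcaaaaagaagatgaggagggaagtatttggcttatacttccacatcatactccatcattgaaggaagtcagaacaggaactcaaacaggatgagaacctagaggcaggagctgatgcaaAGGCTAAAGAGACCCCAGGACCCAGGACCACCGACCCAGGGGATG

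Tie1, which encodes an endothelial receptor tyrosine kinase, had 2 transgenic peaks at its start and no wild-type peak. The peak at chr4:118489781-118489975 rested on 5 fragments and covered the start itself, from base -126 to base 49, with a fold enrichment of 3.02 and a q of 0.363. The other, at chr4:118490032-118490145, rested on 7 fragments and covered bases -250 to -183, with a fold of 4.34 and a q of 0.0895. The fold, p and q of a peak are those the authors deposited. The Tie1 promoter held 7 CpG and 60.3% G or C, against medians of 9 CpG and 55.3% over the promoters of gene-rich windows.

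The only wild-type peak at a promoter lay at Olfr1366, an olfactory receptor gene. It rested on 6 fragments with a fold of 3.35 and covered bases 2 to 49 of the transcript. That promoter held 0 CpG and 38.7% G or C. At Prl3c1, a gene of the placental prolactin family, a transgenic peak of 5 fragments (fold 3.26) shared 62 bases with the promoter, and 83.9% of those bases were A or G. At the predicted gene Gm20234 a transgenic peak of 7 fragments (fold 4.03) shared 45 bases, from base 5 to base 49. The fifth promoter, of the calcium-binding protein gene Cabp2, shared 7 bases with a transgenic peak of 6 fragments (fold 3.11). The letters AGAGAG, searched on both strands after these sequences had been read, stood in all 5 promoters and within the peak bases of 3 of them (Tie1, Olfr1366 and Prl3c1). They stood in 26.6% of the promoters of gene-rich windows and in 27.7% of all 31396 autosomal promoters.

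Both libraries had sparser peaks where genes were dense. The wild-type library had 0.179 peaks per Mb (0.140 to 0.225) in gene-rich windows and 0.334 (0.309 to 0.360) in the other autosomal windows. The transgenic library had 1.43 peaks per Mb (1.32 to 1.55) in gene-rich windows and 2.75 (2.68 to 2.82) in the others. The gene-rich density was therefore 0.536 times the other density in the wild type (0.415 to 0.684) and 0.520 times in the transgenic (0.477 to 0.567). Read density in each window, mappability and repeat content were not analysed here, so their part in the lower density was not tested.

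Both libraries were sparser here to a like degree. The transgenic list held 7.99 times as many peaks as the wild-type list in gene-rich windows (6.25 to 10.3) and 8.23 times as many elsewhere (7.60 to 8.94). The ratio of those ratios was 0.970 (0.749 to 1.27). The lists were called separately, with fragments extended to 57 bp (wild type) and 111 bp (transgenic), at 26735120 and 20697113 ChIP tags. Extension, depth and genotype cannot be told apart in the ratio of the lists.

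Density did not fall evenly with gene number. In the wild-type library it was 0.270 peaks per Mb in windows with 0 coding genes, 0.376 with 1 to 5, 0.304 with 6 to 15, 0.235 with 16 to 20, 0.142 with 21 to 30 and 0.139 with 31 or more. In the transgenic library the same classes gave 2.77, 3.20, 2.20, 1.59, 1.36 and 1.27. Windows with 1 to 5 genes were thus the densest in peaks, above windows with no coding gene midpoint, in both libraries. Within the gene-rich windows, those with 31 or more genes had 0.798 times the transgenic density of those with 16 to 20 (0.644 to 0.984). In the wild type this ratio was 0.591, and its interval includes 1 (0.303 to 1.10). Neither interval covers spread between windows.

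At the threshold itself, 38 windows with exactly 16 coding genes held 11 wild-type and 82 transgenic peaks. The 39 windows with exactly 15, just outside, held 6 and 50. The transgenic density was 2.16 per Mb in the windows just inside the rule and 1.28 in those just outside, a ratio of 1.68 (1.17 to 2.44). Transgenic counts ran up to 8 in a window of 16 genes and up to 4 in one of 15. The interval does not cover that spread, so whether the 2 classes differ beyond it was not tested. The wild-type ratio of 1.88 had an interval that includes 1 (0.638 to 6.20).

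**Figure D1:**
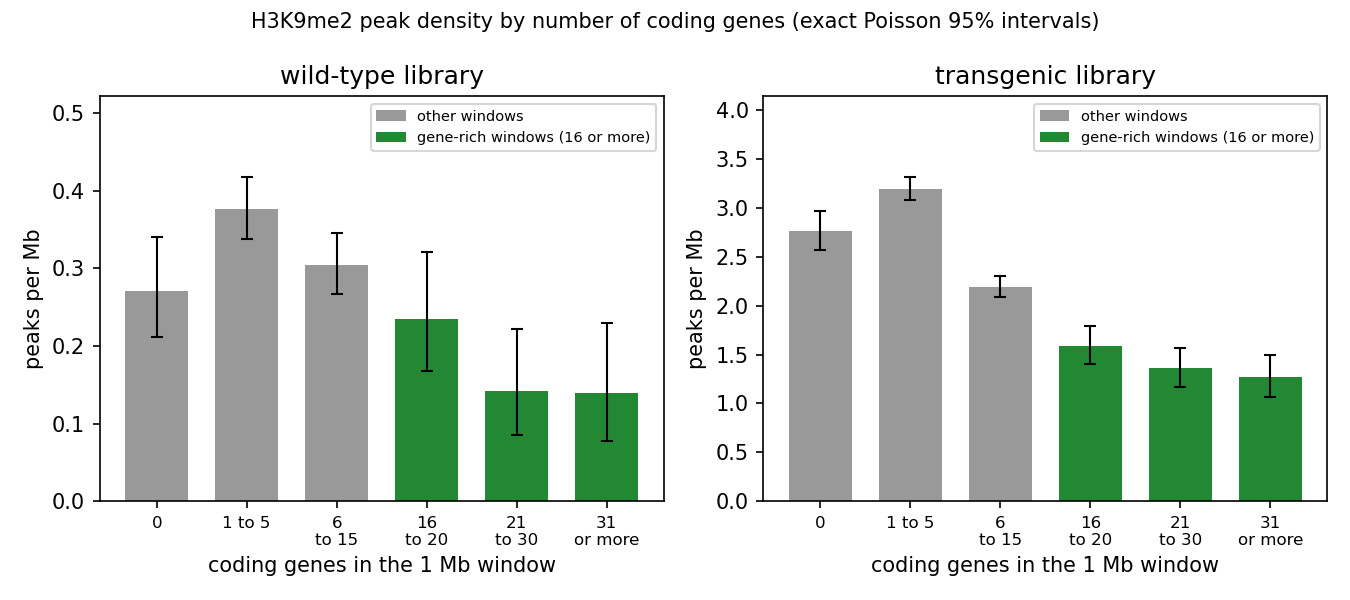
Peaks per Mb (vertical axis, from 0) in 1 Mb windows grouped by their number of coding genes, for the wild-type library on the left and the transgenic library on the right, each on its own scale. Bars are densities and whiskers exact Poisson 95% intervals; the 3 gene-rich classes, in green, lie between 0.139 and 0.235 peaks per Mb in the wild type, and between 1.27 and 1.59 in the transgenic.

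The lower density held on most chromosomes taken singly. The transgenic density of gene-rich windows was below that of other windows on 18 of 19 chromosomes, and the exception was chromosome 1, at 2.83 against 2.66 peaks per Mb. The wild-type density was lower on 16 of 19, with chromosomes 1, 10 and 16 the other way. Chromosome 19 showed the sparsest gene-rich windows in the transgenic library, at 0.765 against 3.10 peaks per Mb. Chromosome 12 had no wild-type peak in its 10 gene-rich windows.

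Most gene-rich windows held no wild-type peak. A wild-type peak lay in 66 of 408 (16.2%), of which 60 held 1, 5 held 2 and 1 held 3. A transgenic peak lay in 245 (60.0%), with at most 9 in a window, and 147 windows (36.0%) had no peak of either library. Other autosomal windows held a peak more often, in 26.5% for the wild type and 87.5% for the transgenic.

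Wild-type and transgenic peaks tended to fall in the same gene-rich megabases. Of the 66 windows with a wild-type peak, 50 also had a transgenic peak (75.8%, 63.6 to 85.5). Of the 342 without one, 195 did (57.0%, 51.6 to 62.3). The mean number of transgenic peaks was 2.15 in the former and 1.29 in the latter. In other windows the shares were 95.5% and 84.7%.

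The peaks did not coincide base by base. Of the 73 peaks called in the wild type, 0 overlapped one of the transgenic list, which allows a share of up to 4.93%, while 4 of 669 did elsewhere. At a gap of up to 10 kb, 4 of them had a transgenic neighbour (5.48%, 1.51 to 13.4), against 10.6% elsewhere. At up to 100 kb 25 did (34.2%, 23.5 to 46.3), against 54.0% (50.1 to 57.8) elsewhere. The median gap was 244174 bp in gene-rich windows and 86470 bp in the others. Transgenic peaks are sparser in gene-rich windows, and the gaps were not corrected for that.

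Those 4 close pairs all lay inside a coding gene. In Lelp1, a gene of the epidermal differentiation complex, a wild-type peak of 6 fragments (fold 3.35) stood 328 bp from a transgenic peak of 10 fragments. In Itgam, which encodes the myeloid integrin CD11b, a wild-type peak with a fold of 4.14 stood 458 bp from a transgenic peak of 7 fragments (fold 3.82). A second transgenic peak in Itgam, at chr7:128085192-128085329, rested on 8 fragments (fold 4.53). In Rap1gap2, which encodes a GTPase-activating protein for Rap1, the gap was 3213 bp, with 5 wild-type and 9 transgenic fragments. In Cdh5, the gene of vascular endothelial cadherin, it was 3831 bp, with 6 wild-type and 7 transgenic fragments. Cdh5 also held a transgenic peak of 8 fragments (fold 4.39) at chr8:104102441-104102630.

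In gene-rich windows the peaks were fewer in coding genes than the bases of those genes would give. Coding gene bodies made up 54.4% of the bases of these windows but held 30.1% of wild-type peaks (19.9 to 42.0) and 37.1% of transgenic peaks (33.1 to 41.1). Intergenic sequence made up 29.5% of the bases and held 46.6% of wild-type and 42.7% of transgenic peaks. Flanks within 2 kb of a gene held 9.59% and 10.5%, beside 9.73% of the bases. Bodies of other genes held 13.7% and 9.78%, beside 6.41% of the bases. Most of those were long non-coding RNA genes, with 9 of 10 wild-type and 42 of 57 transgenic peaks of that class. Exons and introns could not be separated with the annotation used.

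This shortfall in coding bodies was larger here than elsewhere on the autosomes. Their wild-type peak density was 0.350 times the intergenic density in gene-rich windows (0.195 to 0.617) and 0.664 times in other windows (0.554 to 0.793). For the transgenic library the ratios were 0.470 (0.390 to 0.566) and 0.620 (0.583 to 0.660). The transgenic intervals do not overlap, and the wild-type intervals do. Intergenic sequence of gene-rich windows was itself sparser in transgenic peaks than intergenic sequence elsewhere, at 0.640 times (0.560 to 0.729). The wild-type ratio of 0.760 had an interval that includes 1 (0.518 to 1.08).

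**Figure D2:**
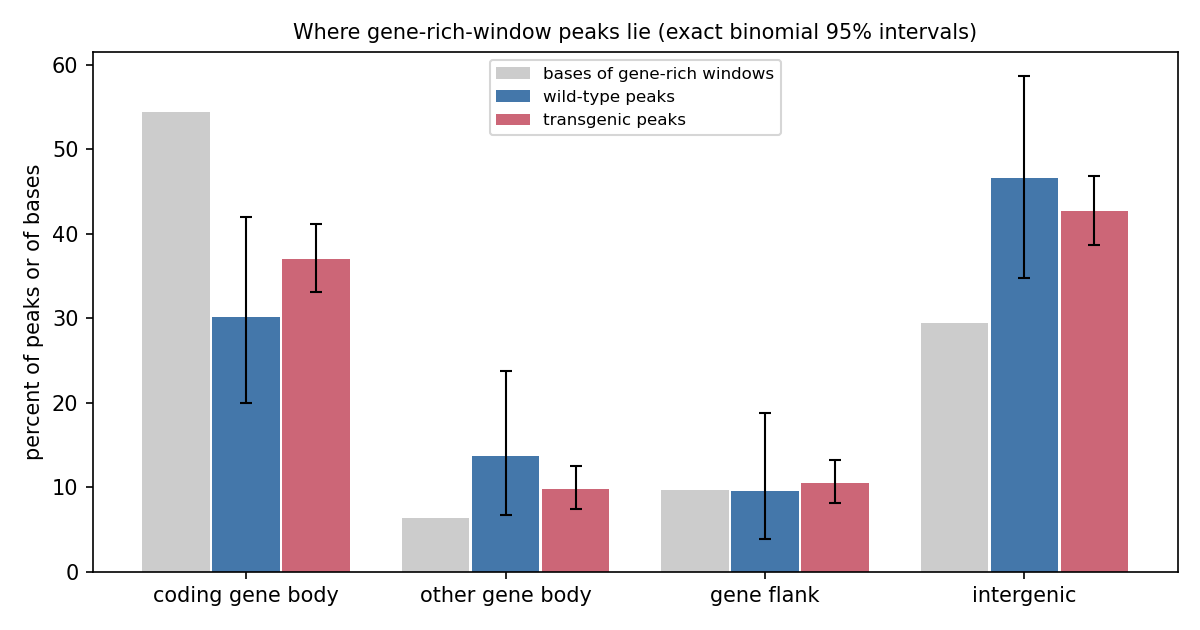
Share of gene-rich-window peaks in each kind of sequence (percent, vertical axis from 0), with wild-type peaks in blue, transgenic peaks in red and the share of bases in grey; whiskers are exact binomial 95% intervals. Both libraries lie below the grey bar for coding gene bodies (30.1% and 37.1% against 54.4%) and above it for intergenic sequence.

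Inside the gene-rich megabases, stretches without a coding gene midpoint carried the highest density. Each window was divided into stretches of 100 kb, classed by the number of coding gene midpoints in them. Genes were counted by midpoint only, so a stretch with none can still lie inside a long coding gene such as Ano2. The 417 stretches with no midpoint held 17 wild-type peaks, or 0.408 per Mb (0.237 to 0.653). They held 102 transgenic peaks, or 2.45 per Mb (1.99 to 2.97). Stretches with 1 or 2 genes had 0.408 times that density in the wild type (0.219 to 0.785) and 0.543 times in the transgenic (0.430 to 0.691). The wild-type density went on to 0.0867 per Mb in stretches with 6 or more genes, which held 3 peaks. The transgenic density was 1.33, 1.30 and 1.30 per Mb in stretches with 1 or 2, 3 to 5 and 6 or more genes, values that lie within each other's intervals.

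Set against stretches of other windows with the same number of genes, the density ratio varied by class. In stretches with no coding gene midpoint the wild-type densities were 0.408 and 0.381 per Mb, a ratio of 1.07 (0.618 to 1.73). The transgenic densities of those stretches were 2.45 and 3.18 per Mb, a ratio of 0.769 (0.625 to 0.936). With 1 or 2 genes the ratio was 0.652 in the wild type (0.429 to 0.962) and 0.659 in the transgenic list (0.573 to 0.755). With 3 to 5 genes it was 1.05 (0.450 to 2.73) and 1.20 (0.890 to 1.63), so the lower density of gene-rich windows was not seen in such stretches. Around the peaks themselves, 20 wild-type (27.4%) and 100 transgenic peaks (17.2%) had no coding gene midpoint within 50 kb. Wild-type peaks outside coding genes had a median gap to the nearest one of 17584 bp, and transgenic peaks of 11218 bp.

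**Figure D3:**
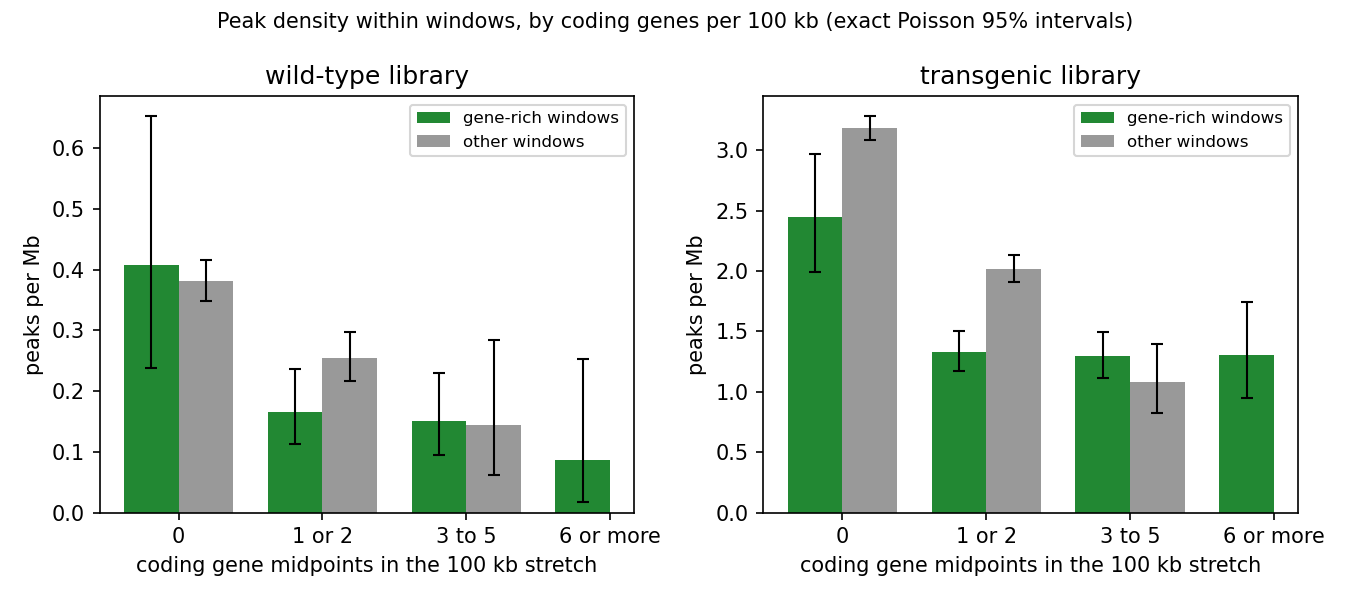
Peaks per Mb (vertical axis, from 0) in 100 kb stretches grouped by their number of coding gene midpoints, with stretches of gene-rich windows in green and of other windows in grey, the wild-type library on the left and the transgenic on the right. Whiskers are exact Poisson 95% intervals, and no bar is drawn for other windows with 6 or more genes. The green bars for stretches with no midpoint (0.408 and 2.45 peaks per Mb) stand above the other green bars.

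Distance to a gene start gave a like picture. Starts were known for 8741 of 10553 coding genes of gene-rich windows, on 18 autosomes. Transgenic density was 1.21 per Mb within 1 kb of a start (22 peaks), 1.17 from 1 to 5 kb, 1.41 from 5 to 20 kb, 1.42 from 20 to 100 kb and 2.46 beyond 100 kb. Only the class beyond 100 kb had an interval (1.91 to 3.12) clear of those of the 4 nearer classes, which overlap each other. The wild-type density was 0.477 per Mb beyond 100 kb (13 peaks) and 0.165 within 1 kb (3 peaks). Within 1 kb of a start the transgenic density was higher in gene-rich than in other windows, by 2.58 times (1.11 to 6.69; 22 against 8 peaks), the only distance class of that library with a ratio above 1. The promoters themselves, those of non-coding genes included and counted by any shared base, gave a ratio of 0.468 (0.133 to 1.35). That interval includes 1, and the ratio rests on 5 against 15 peaks.

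Gene by gene, a peak in the body or within 2 kb was rare. In the wild type 29 of 10696 coding genes of gene-rich windows had one (0.271%), beside 196 of all 20560 autosomal coding genes (0.953%). In the transgenic 222 had one (2.08%), beside 1183 of all (5.75%). The peaks of gene-rich windows themselves touched 28 coding genes in the wild-type list and 227 in the transgenic list, because a peak and a gene midpoint can lie in neighbouring windows. Coding genes of gene-rich windows were short, with a median length of 10520 bp against 31472 bp elsewhere.

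Within classes of gene length the transgenic shares were close for short genes and lower in gene-rich windows for longer ones. Among genes under 10 kb, 51 of 5164 had a transgenic peak in gene-rich windows (0.988%, 0.736 to 1.30) and 0.899% did elsewhere (0.542 to 1.40). From 10 to 50 kb the shares were 1.88% (1.50 to 2.32) and 3.04% (2.54 to 3.61). From 50 to 200 kb the shares were 5.73% (4.39 to 7.33) and 12.6% (11.4 to 13.9). At 200 kb or more they were 36.3% (29 of 80, 25.8 to 47.8) and 54.3% (50.9 to 57.7). Genes were shorter in gene-rich windows within every class, so the classes do not match length fully. The medians were 19729 against 24624 bp from 10 to 50 kb and 76232 against 88014 bp from 50 to 200 kb. In the longest class they were 246261 against 339132 bp. In the wild type the intervals overlapped in every length class. Its shares were 0.271% against 0.169% from 10 to 50 kb (0.140 to 0.474 and 0.0679 to 0.348). They were 0.971% against 1.71% from 50 to 200 kb (0.467 to 1.78 and 1.26 to 2.27), and 5% against 12.9% above that (1.38 to 12.3 and 10.8 to 15.4).

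**Figure D4:**
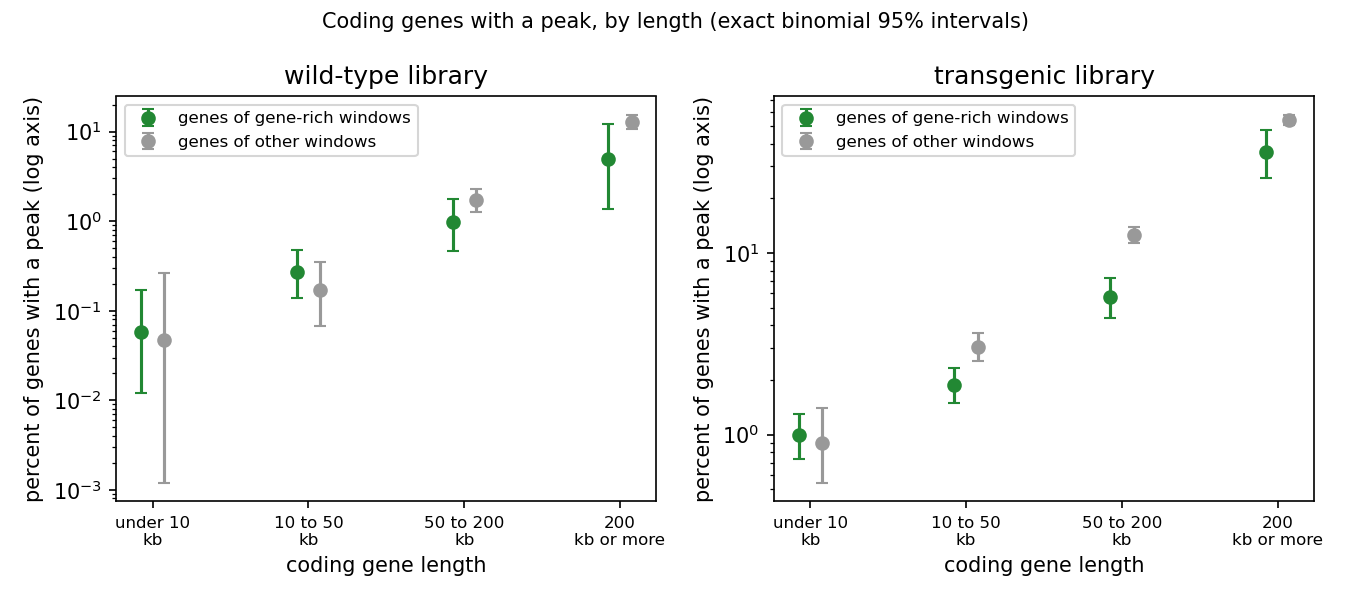
Share of coding genes with a peak in the body or within 2 kb (percent, log axis) by gene length, for genes of gene-rich windows (green) and other windows (grey), the wild-type library on the left and the transgenic on the right; points are shares and whiskers exact binomial 95% intervals. In the transgenic library the shares are 0.988% and 0.899% for genes under 10 kb and 36.3% and 54.3% for genes of 200 kb or more.

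Ano2 held more peaks than any other gene of the set. It encodes a calcium-activated chloride channel known from olfactory sensory neurons and lies at chr6:125690419-126040133. It had 9 transgenic peaks of 5 to 8 fragments, with folds from 2.94 to 4.89, spread from chr6:125707490-125707631 to chr6:125925035-125925288, and the nearest wild-type peak lay 1971684 bp from the last of them. At the mean transgenic density of gene-rich windows a gene of its length would hold 0.505. Ano2 was picked as the gene with most peaks, so setting its count beside that value is not a test. All 9 peaks of its window lay in Ano2, and the window's 20 other coding genes, among them Gapdh, Chd4 and Vwf, had none.

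Of the other coding genes, 3 held 3 transgenic peaks and 25 held 2. In Muc4, a membrane mucin gene of 46506 bp, the 3 peaks stood within chr16:32756014-32757209, with 7, 7 and 6 fragments. In Cdk5rap1, which encodes a tRNA-modifying enzyme of mitochondria, they rested on 7, 6 and 7 fragments, the last also inside Bpifb9b, which overlaps it. In Iqsec1, which encodes an exchange factor for the GTPase ARF6, they rested on 7, 9 and 8 fragments. Those with 2 peaks included Tie1, Itgam, Cdh5, the potassium channel gene Kcnq1 and the ryanodine receptor gene Ryr3. No gene held 2 wild-type peaks of gene-rich windows.

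A further 3 genes had a peak of each library at a greater distance. In Lrp2, which encodes the endocytic receptor megalin, the wild-type peak rested on 7 fragments (fold 4.49) and the transgenic peak, 88511 bp away, on 10 (fold 4.99). In Abca14, a transporter gene, the wild-type and transgenic peaks rested on 7 and 6 fragments, 58027 bp apart. In Adamts2, which encodes a procollagen-processing protease, both rested on 6, 71288 bp apart. With Lelp1, Itgam, Rap1gap2 and Cdh5 these made 7 genes touched in both libraries.

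Some transgenic peaks had a near neighbour in their own list. Another transgenic peak lay within 1 kb of 26 of 583 (4.46%), against 127 of 5509 in other windows (2.31%). Both members of a pair are counted, so these are not independent, and merging peaks within 1 kb took 583 peaks to 569. Within 10 kb the counts were 75 of 583 (12.9%) and 552 of 5509. The wild-type list had a single such pair within 1 kb, 18969 and 18293 bp from Galnt15 on chromosome 14, and none of 669 elsewhere.

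The windows richest in peaks differed between libraries. For the wild type it was chr11:32000001-33000000, with 17 coding genes, among them the alpha-globin genes, and 3 peaks. Those 3 peaks lay 33452 bp from Il9r, 25079 bp from Fbxw11 and inside the non-coding gene Gm12111, and the window had 0 transgenic peaks. A further 5 windows held 2 wild-type peaks. Those starting at 37 Mb of chromosome 9, 74 Mb of chromosome 15 and 32 Mb of chromosome 14 held 2 transgenic peaks each. Those at 180 Mb of chromosome 2 and 61 Mb of chromosome 10 held none.

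For the transgenic, the window at chr4:118000001-119000000 held 9 peaks and 27 coding genes, 0 of its peaks wild-type. Besides the pair at Tie1 and a peak in the cilia gene Cfap57, its peaks lay among a cluster of olfactory receptor genes, the strongest 7735 bp from Olfr1335, with 9 fragments and a fold of 5.03. Its equal was the Ano2 window. Windows with 8 peaks lay at 142 Mb of chromosome 7 (Lsp1, Tnnt3 and sequence near Ins2 and Th), 88 Mb of chromosome 1 (the Ugt1a cluster and Trpm8) and 148 Mb of chromosome 2 (near Foxa2 and the cystatin genes Cst9 and Cst3). The last of these was the only one of the 5 with a wild-type peak.

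The 5 windows with most coding genes held 0 or 1 peak of each library. The window with 67 coding genes, at 37 Mb of chromosome 18, held 0 wild-type and 1 transgenic peak. That with 66, at 45 Mb of chromosome 7, also held 0 and 1. The windows with 62 and 61, at 69 Mb of chromosome 11 and 35 Mb of chromosome 17, had none of either library, and that with 60, at 25 Mb of chromosome 2, held 1 of each. Dense genes did not always go with so few peaks, as the window of 55 genes at 99 Mb of chromosome 11 held 7 transgenic peaks and 1 wild-type peak. Over all 108 windows with 31 or more coding genes, 56.5% held a transgenic and 13.9% a wild-type peak.

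Peaks in gene-rich windows had sizes like those of peaks elsewhere. The median wild-type peak rested on 6 fragments with a fold of 3.87 (3.34 to 5.53 from lowest to highest) and the median transgenic peak on 7 with a fold of 3.63 (2.85 to 6.04). Medians in other windows were 6 and 6 fragments, and folds of 3.90 and 3.62. Median widths were 57 and 112 bp, at or near the extension used in each call. A q of 0.1 or less was reached by 0 wild-type and 136 transgenic peaks (23.3%, against 23.2% elsewhere), and a q of 0.05 or less by none of either library.

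The strongest wild-type peak lay at chr11:82030567-82030623, 4954 bp from Ccl2, a monocyte-attracting chemokine gene, with 9 fragments, a fold of 5.53 and a q of 0.606. The other 72 wild-type peaks had a q of 1. The next 9 by p lay in the flanks of Ms4a15 and Ctse, in the non-coding genes Rdh18-ps and Gm32662, or between genes, nearest to Sqor, Ly6d, Lama5, Tns4 and Tgfa. None of the 10 lay in a coding gene body.

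The strongest transgenic peak lay at chr19:11342598-11342760, 6452 bp from Ms4a7, a gene of macrophages, with 11 fragments, a fold of 6.04 and a q of 0.0673. Of the next 9, those in coding genes were in Gm29825, in Osbp2, an oxysterol-binding protein gene, in the olfactory receptor gene Olfr876 and in Lrp2. Those between genes were nearest to Hnmt, Prl8a6, Olfml1, Krtap4-6 and Rnf150. One transgenic peak had far more fragments than the rest, 22 at chr1:88294518-88294634, yet its fold was 3.32.

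Genes of cortical development and of the H3K9 methylation machinery carried no peak. The lists for radial glia, intermediate progenitors, basal radial glia, cortical neurons, interneurons, H3K9 methylation and the cell cycle had 37 members in gene-rich windows. None of the 37 had a peak in either library, beside 0.271% and 2.08% of all coding genes of these windows, shares at which lists this small would often hold none. The nearest transgenic peak lay at a median of 435506 bp from these 37 genes, against 380169 bp over all 10696, and the nearest wild-type peak at 1690188 against 1910429 bp.

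Ehmt2 itself, in a window of 53 coding genes with no peak of either library, lay 1464053 bp from the nearest transgenic peak. Ehmt1 lay 435506 bp from a transgenic and 191231 bp from a wild-type peak. Setdb1, which encodes an H3K9 methyltransferase, had a transgenic peak 16547 bp away, and Kdm3a, an H3K9 demethylase gene, one 24275 bp away. They were among only 3 of the 37 listed genes with a transgenic peak within 100 kb. Of all 10696 coding genes of gene-rich windows 20.8% had one that close. Among genes of progenitors, Notch1 lay 213475 bp and Nes 484708 bp from a transgenic peak. Of the lists for other cell types, 1 of 8 microglial and blood genes (Itgam) and 1 of 6 endothelial, mural and meningeal genes (Cdh5) had peaks, in both libraries, and 0 of 5 glial genes. In each library the first 2 shares were 12.5% (0.316 to 52.7) and 16.7% (0.421 to 64.1). These intervals include the transgenic 2.08% of all coding genes of these windows but not the wild-type 0.271%, and each rests on 1 gene.

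Gene families that crowd into clusters make up many gene-rich windows. In 37 windows, on 12 chromosomes, at least 50% of the coding genes were olfactory or vomeronasal receptors, which detect odours and pheromones. These windows held 59 transgenic peaks, or 1.59 per Mb (1.21 to 2.06), in 25 of the 37. The 361 windows with no leading family held 503, or 1.39 per Mb, a ratio of 1.14 (0.859 to 1.50). The wild-type library had 1 peak in the receptor windows, 0.0270 per Mb (0.000684 to 0.151), against 71 in windows with no leading family, 0.197 per Mb.

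The libraries thus differed more in proportion in the receptor windows than in windows with no leading family. The wild-type ratio of receptor windows to those with no leading family was 0.137 (0.00343 to 0.791), and 7.28 wild-type peaks would have been counted at equal density. The transgenic to wild-type ratio was 8.33 times as high in receptor windows (1.39 to 339), an interval that rests on a single wild-type peak. That peak lay in Rap1gap2, not in a receptor gene. The window classes were compared after the data had been seen, and with 1 library a genotype the difference has no replicate check.

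Of the 59 transgenic peaks of the receptor windows 39 were intergenic, and 8 lay in a receptor gene or within 2 kb of one. The share of bases that receptor genes and their flanks make up there was not computed. Whether these counts differ from that share was therefore not tested. A receptor was the nearest coding gene for 40. Over all gene-rich windows, 1 of 1031 olfactory receptor genes had a wild-type peak (0.0970%) and 11 had a transgenic peak (1.07%, 0.534 to 1.90), beside 0.271% and 2.08% of all coding genes there. Their median length was 951 bp. The wild-type gene was Olfr1366, and the transgenic ones included Olfr554, Olfr876, Olfr51 and Olfr462. Of 221 vomeronasal and trace amine receptors 1 had a wild-type peak (Vmn2r82) and 2 a transgenic peak (Vmn2r78 and Vmn2r81).

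The 3 windows led by keratin genes, taken whole, were denser in transgenic peaks than windows with no leading family. The 3 windows led by keratin or keratin-associated genes, which build hair and epidermis, held 15 transgenic peaks, 5 per Mb (2.80 to 8.25), or 3.59 times the density of windows with no leading family (1.99 to 5.98). Peaks numbered 7 in the window of 55 coding genes on chromosome 11, 4 in that of 33 on chromosome 15 and 4 in that of 23 on chromosome 16. Of the 15 peaks 8 were intergenic, 4 lay in gene flanks and 1 in the body of another gene. The other 2 lay in coding gene bodies, those of Krt86 and Grik1. A single window with no leading family held up to 9 transgenic peaks, and the interval does not cover spread between windows. This class, too, was compared after the data had been seen. The wild-type library had 1 peak in the keratin windows, 6045 bp from Tns4. Of 111 keratin genes in gene-rich windows 5 had a transgenic peak (4.50%, 1.48 to 10.2), among them Krtap4-9, Krt86, Krt5 and Krtap19-5, and 0 a wild-type peak. That interval includes the 2.08% of all coding genes of gene-rich windows.

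**Figure D5:**
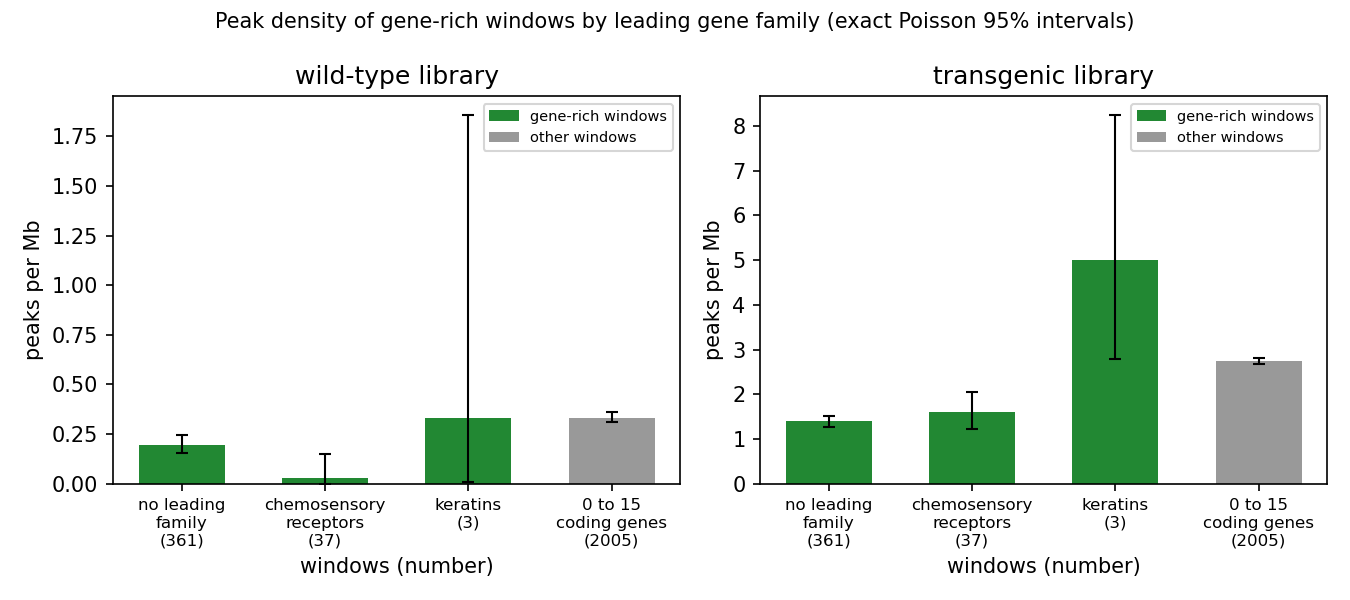
Peaks per Mb (vertical axis, from 0) in gene-rich windows by the gene family that makes up at least 50% of their coding genes (green) and in other autosomal windows (grey), the wild-type library on the left and the transgenic on the right; window numbers stand under the bars and whiskers are exact Poisson 95% intervals. Receptor windows lie at 0.0270 peaks per Mb in the wild-type list and 1.59 in the transgenic list, and keratin windows at 5 in the transgenic.

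Zinc finger genes, another family of large clusters, carried no peak. Of 271 Zfp, Zscan and Zkscan genes in gene-rich windows 0 had a peak in either library, which allows a share of up to 1.35%, below the transgenic share of 2.08% over all coding genes there. Their median length, 15928 bp, was above that of all coding genes of these windows. Transgenic peaks were commonest in genes of 200 kb or more (36.3%), however, and zinc finger genes were not compared by length class. Many gene lists were compared, and no allowance was made for their number. The 161 genes of cytosolic ribosomal proteins, proteasome subunits and the respiratory chain with the mitochondrial ribosome had 0 peaks. The upper limits of these 3 lists, 6.72%, 14.8% and 4.25%, each lie above 2.08%. Their median lengths, 3230, 6928 and 5477 bp, were below the 10520 bp of all coding genes of these windows. The 19 Hox genes, 35 major histocompatibility genes, 26 kallikreins, 61 defensins and 25 chemokine genes had none either, but with so few genes the upper limit of each of these 5 shares, 5.87% at the lowest, lies above 2.08%.

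In each of 5 further families 1 or 2 genes had a transgenic peak and 0 a wild-type peak. Of 54 cytochrome P450 genes 2 had a transgenic peak (Cyp19a1, the aromatase gene, and Cyp2d9), as did 2 of 39 potassium channel genes (Kcnq1 and Kcnu1). Klrb1, Serpina3b and Trim54 were the single ones among 16 killer cell lectin-like receptors, 29 serpins and 40 tripartite motif genes. The interval of each of these 5 shares includes 2.08%.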

How the data were processed

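H3K9me2 ChIP-seq was available as 1 peak list per genotype (wild-type and TBC1D3-transgenic). The authors ran MACS 2.1.0.20150420 on each library against its own input, per the file headers, at a p cutoff of 0.001 and with the larger dataset scaled to the smaller. BWA (no version) and the build mm10 are named in the submitters' processing notes. Pileup, the deposited signal, counts extended fragments over a summit. The pileup was divided by the scale (0.951 in the wild type, 1 in the transgenic) to give whole fragments. Fold enrichment, as deposited, is a ratio of pileup to local background. The −log10 of p and of q are as the authors' peak caller wrote them. The headers say that q is not calculated, but q is listed and was used as listed. Positions and widths are as the authors listed them.

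Windows, genes and locations came from a RefSeq table of GRCm38.p6, which gives no strand or exons, and strand and starts from a RefSeq promoter table without chromosome 18. Coding genes starting below 3 Mb (105) were left out as placed on scaffolds. A coding gene had a peak when one overlapped its body or the 2 kb beside it. Intervals are exact Poisson for densities, exact binomial (Clopper-Pearson) for shares and exact conditional for ratios, all at 95%. No tested p-value was computed. Python 3.11.15, numpy 2.4.6, pandas 2.3.3 and scipy 1.17.1 were used, and the counting steps were tested on simulated data.

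Named items were, per library, the 10 peaks with highest −log10 p, genes with most peaks, genes with peaks in both libraries, the 5 windows with most peaks (ties counted), up to 4 members of each list with a peak, peaks in promoters, and wild-type peaks within 10 kb of a transgenic peak. Gapdh, Chd4, Vwf, Foxa2 and other window genes, the genes without a peak and the transgenic peak with 22 fragments were named after their values were seen. The 100 kb stretches, start distances, length classes, family windows, own-list neighbours and motif were also chosen then. The members and lists were chosen with earlier results of these data known. The histone list matched no symbol in the table. The result of 1 further list is not reported here.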

Additional observations from a re-analysis of the deposited data

How the results depend on the processing

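No paired analysis was possible because each genotype has 1 library, and for the same reason no library could be left out. Of 96 alternative values, 61 stayed within counting error or 1.5 times of the value reported, 34 moved and 1 reversed. All 16 alternative ratios of gene-rich to other density had intervals wholly below 1. Those that moved were 0.452 for the transgenic with windows shifted by 500 kb, and 0.393 (transgenic) and 0.339 (wild type) at a fold of 5 or more.

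Other rules for gene-rich windows or stricter peaks change the counts by construction. With 11 or more, or 21 or more, coding genes a window, the peaks numbered 139 or 34 in the wild type and 1022 or 319 in the transgenic. A −log10 p of 5 or more left 20 and 192, and a fold of 5 or more left 4 and 12. Genes with a peak numbered 48, 15, 6 and 1 in the wild type and 364, 118, 84 and 5 in the transgenic under those 4 rules, and 49 and 417 with a 10 kb flank. Transgenic peaks lay in 64.8%, 54.5%, 31.4% and 2.94% of windows under the 4 rules and in 55.0% of shifted windows. Wild-type peaks lay in 4.90% at a −log10 p of 5 or more and in 0.980% at a fold of 5 or more. The coding-body share was 32.9% of transgenic peaks with 21 or more genes and 0% of the 4 wild-type peaks at a fold of 5 or more. Wild-type peaks meeting a transgenic peak rose from 0 to 2, 4 and 25 at gaps of up to 1, 10 and 100 kb. The transgenic to wild-type ratio was 3 at a fold of 5 or more. It turned to 0.849 (0.595 to 1.21) when the transgenic list was cut to the wild-type length, which equalises the lists by construction.

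Most peaks rest on 5 to 7 fragments, so single peaks near the p cutoff are uncertain, and the 73 wild-type peaks leave wide intervals.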
